A study of Mus musculus with 7 samples.

Results

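Induced pluripotent stem cells (iPSC) without Nanog were compared with embryonic fibroblasts (MEF) without Nanog, to describe which genes were on and off after reprogramming in cells without this factor. The comparison rests on 3 of the 7 arrays of the series, picked by their titles: the 2 arrays of Nanog knockout (KO) iPSC and the 1 array of Nanog KO MEF. The other 4 arrays, given beside them, are of wild-type (WT) cells: 1 of embryonic stem cells (ESC), 2 of iPSC and 1 of MEF. All cells are of mouse strain 129 and carry either the Nanog KO or the WT genotype, and the labels give no treatment, dose or time that differs between groups. Each array was made from 73.5 ng of total RNA. The protocols list ESC, 2i/LIF and MEF media without assigning one to any sample. If iPSC and MEF were grown in different media, cell type and medium cannot be told apart. The labels name neither the reprogramming factors nor the stretch of Nanog that was deleted. They call the iPSC replicates biological, without saying whether these are separate lines. KO MEF is 1 array, so its own spread was not measured and was taken to be like that of the iPSC pairs. Where 1 KO iPSC array is left out, the WT iPSC pair alone gives the spread, and where 1 WT iPSC array is left out, the KO iPSC pair alone. A result given without either array is one found with the one or the other left out, each in turn.

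Reprogramming replaces the transcription programme of a somatic cell with that of a pluripotent cell. The fibroblast programme of collagens, matrix proteins and contractile proteins is lost, epithelial junctions are gained, and a network of transcription factors around Oct4 (encoded by Pou5f1) and Sox2 comes to sustain itself. Nanog is a homeodomain factor of that network. Cells without it can remain pluripotent but tend to differentiate more readily.

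The levels below are log2 intensities, and a difference is KO iPSC minus KO MEF on the log2 scale. A gene is said to have risen or fallen where limma gave a Benjamini-Hochberg adjusted p under 0.05 over all 22180 genes with 1 symbol. Background was set on each array at the level that 95% of 1390 receptor genes of smell (olfactory and vomeronasal) did not exceed, and lay between 6.30 and 6.5. Cells of these types are not known to express those receptors. Where the dimmer group lay below it, the fold was taken against the background and is a lower bound, written "at least". The 7 arrays were alike in their median (7.05 to 7.13) and in the share of genes above background (61.0% to 63.7%). Only 4 genes differed by over 2-fold between the 2 KO iPSC arrays (SD over genes 0.15), against 350 between the 2 of WT iPSC (SD 0.32). These RNAs come from bulk cultures, in which fewer cells of a type and less RNA per cell cannot be told apart.

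Nanog stood at 7.5 and 7.44 in the KO iPSC arrays and at 6.42 in KO MEF, against 12.73 to 12.84 on the 3 WT pluripotent arrays and 6.53 in WT MEF. The KO iPSC arrays lay far below the 3 WT pluripotent arrays and slightly above both fibroblast arrays. The rise of Nanog over KO MEF was 1.05 (SE 0.11, adjusted p = 0.00172). Whether its probe set lies in the deleted stretch is unknown, so what this signal reads is not known.

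Both KO cell types also shared a low signal of Hprt, the X-linked purine salvage enzyme, which the labels do not mention. It stood at 4.32 and 4.83 in KO iPSC and at 5.72 in KO MEF, all below background, and between 9.90 and 10.98 on the 4 WT arrays. Hprt was singled out after its values were seen. The Y-linked genes Eif2s3y and Uty did not match between the 2 KO cell types. Eif2s3y, a translation initiation factor subunit, stood at 9.21 in KO MEF and at 5.01 and 5.22 in KO iPSC. Uty, a histone demethylase family member, stood at 8.78 in KO MEF and at 4.90 and 5.27 in KO iPSC. KO MEF was therefore the only array of the 7 with a clear signal of these 2 Y-linked genes. The highest of the other 6 was 6.25 for Eif2s3y and 6.18 for Uty. Kdm5d, also Y-linked and picked after its values were seen, lay below background on all 7 arrays. It stood at 5.23 in KO MEF and at 4.61 and 4.67 in KO iPSC. In the differences below, cell type and other properties of the 1 KO MEF sample, the Y-linked signal among them, cannot be told apart. Xist, the RNA that coats the inactive X chromosome, stood at 7.57 and 7.23 in KO iPSC, 9.15 in KO MEF and 11.97 in WT MEF, and its difference did not pass (-1.75, SE 0.67, adjusted p = 0.108). Without either WT iPSC array, which differ from each other in Xist, it passed (adjusted p = 0.000238). Over 463 X-linked genes above background in KO iPSC or KO MEF the median difference was 0.04. Medians of the autosomes, with genes kept in the same way, lay between 0.0 and 0.11.

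The labelled cell types matched their defining markers. Of 12 markers of pluripotent cells, 11 rose and 0 fell, and Dppa5a did not pass. On the KO MEF array 4 of these 12 lay above background, and on the KO iPSC arrays 12 and 11. Dppa5a lay near background on all 7 arrays, WT ESC included (6.24 to 6.58). Of 12 fibroblast markers 11 were measured, and all 11 fell. Their median was 11.97 in KO MEF, 6.98 and 6.91 in KO iPSC and 10.09 in WT MEF. In the WT pluripotent arrays it was 7.80 in ESC and 7.99 and 7.20 in iPSC, so the median was lowest in the KO iPSC arrays.

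**Figure D1:**
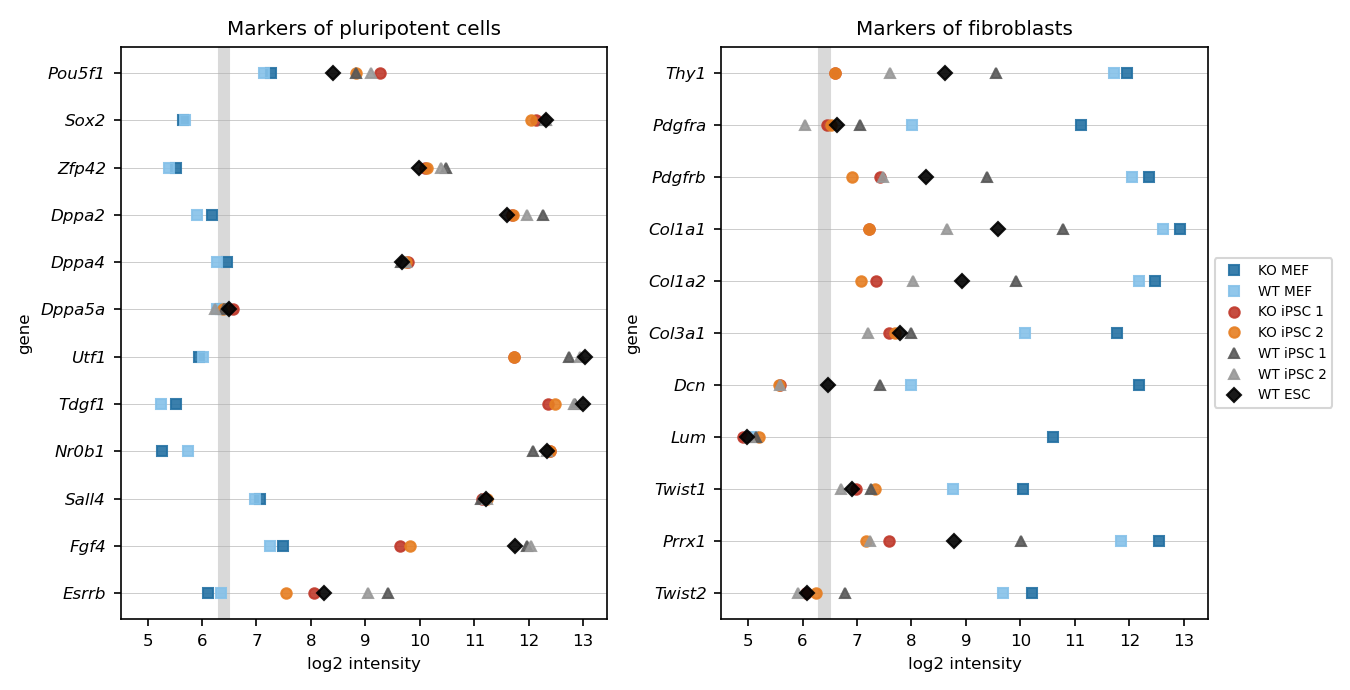
Log2 intensity of 12 markers of pluripotent cells (left) and 11 markers of fibroblasts (right) on each of the 7 arrays, 1 symbol per array, with the range of the background (6.30 to 6.5) as a grey band. The KO iPSC arrays (circles) sit near the WT pluripotent arrays in most of the left panel and at or below them in most of the right panel, and the MEF arrays (squares) stand at the opposite end, except for Dppa5a.

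In all, 4004 genes rose, 18.1% of those tested, and 3963 fell, 17.9%. The largest changes were more often falls. At least 2-fold, 1653 genes rose and 2204 fell. At least 4-fold, 487 rose (2.2%) and 886 fell (3.99%), and at least 16-fold, 65 rose and 161 fell. These counts depended on the KO iPSC pair. Without KO iPSC replicate 1, 2231 genes rose and 2546 fell, without KO iPSC replicate 2, 2199 and 2680, and with the pair averaged as 1 array, 2188 and 2599.

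**Figure D2:**
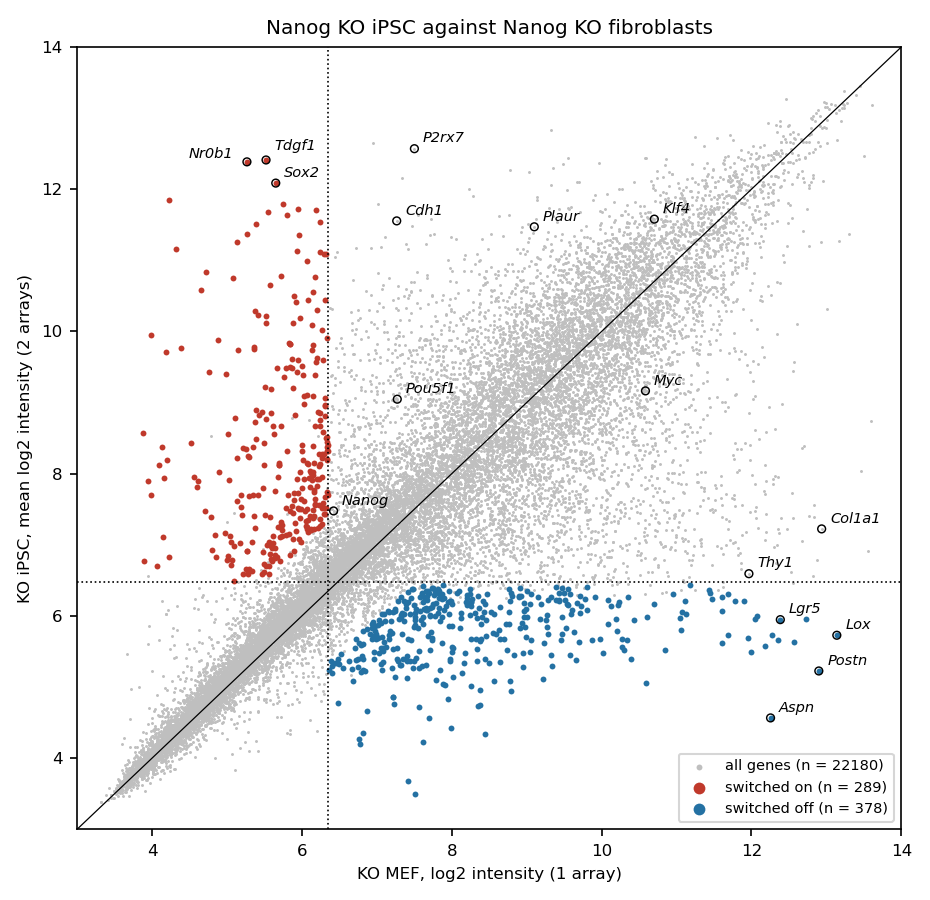
Mean log2 intensity of the 2 KO iPSC arrays against the KO MEF array for 22180 genes, with the line of equal level and dotted lines at the background. Red marks the 289 genes switched on from below background and blue the 378 genes switched off to below it. Nr0b1, Tdgf1 and Sox2 stand at the upper left and Lox, Postn and Aspn at the lower right, while Nanog lies near the diagonal.

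The pluripotency network rose as a group. Of its 42 measured genes 36 rose (18.1% of all genes did) and 0 fell, with a median difference of 2.86 against 0.07 over all genes. Its median level was 10.73 and 10.67 in KO iPSC and 6.40 in KO MEF, where 20 of the 42 lay below background. Genes that define the pluripotent state had some of the largest rises. The orphan nuclear receptor Nr0b1, a corepressor known as Dax1, stood at 12.38 and 12.39 in KO iPSC and at 5.26 in KO MEF, a rise of at least 65.5-fold (7.12, SE 0.14, adjusted p = 0.000112). Tdgf1, the Nodal co-receptor Cripto, stood at 12.35 and 12.48 against 5.52, at least 66.7-fold (6.89, SE 0.11). The core factor Sox2 stood at 12.12 and 12.05 against 5.65, at least 53.2-fold (6.44, SE 0.11). In all 3 genes the KO iPSC arrays were close to the WT pluripotent arrays (12.07 to 12.99) and both MEF arrays lay below background. Fbxo15, a ubiquitin ligase subunit whose locus is a classic reporter of reprogramming, rose at least 32.5-fold, the chromatin-associated Utf1 at least 41.5-fold and the naive transcription factor Tfcp2l1 by 5.71.

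The promoters of the 2 network genes with the largest rise are shown because both genes lay below background in KO MEF and gave a strong signal in KO iPSC. They are the 250 bases upstream of the RefSeq start in build GRCm38.p6, 5′ to 3′, with each TATAAA (searched on both strands) in capitals. Nr0b1 lies on chrX:86191525-86191774, plus strand, and Tdgf1 on chr9:110946159-110946408, minus strand.
Nr0b1: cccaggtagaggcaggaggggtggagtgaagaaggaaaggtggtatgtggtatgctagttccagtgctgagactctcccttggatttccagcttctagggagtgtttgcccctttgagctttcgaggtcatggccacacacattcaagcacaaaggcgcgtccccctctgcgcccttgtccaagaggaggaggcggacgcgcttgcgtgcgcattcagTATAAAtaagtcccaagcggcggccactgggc
Tdgf1: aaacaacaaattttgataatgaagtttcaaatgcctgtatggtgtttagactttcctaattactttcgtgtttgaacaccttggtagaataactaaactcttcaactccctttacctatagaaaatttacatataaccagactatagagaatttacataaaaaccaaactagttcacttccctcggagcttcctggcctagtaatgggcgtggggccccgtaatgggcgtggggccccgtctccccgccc
The Nr0b1 window holds TATAAA near its downstream end, and the Tdgf1 window does not hold it. Over the 16918 promoters of measured genes 12% held TATAAA, and of the 366 promoters of genes that rose at least 4-fold 7.1% did. TTTGCAT, 7 letters of the octamer that Oct4 binds, lay in 3.82% of all promoters, 5.19% of those that rose at least 4-fold and 7.14% of the 210 promoters of genes switched on. CACGTG, the E-box read by MYC, lay in 6.8%, 8.2% and 5.71% in the same order. These shares describe letters in a window and not binding.

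Pou5f1, Klf4 and Myc, which with Sox2 are often used for reprogramming, moved unequally, and whether they were used on these cells is not known. Pou5f1, which encodes Oct4, stood at 9.27 and 8.82 in KO iPSC and 7.27 in KO MEF, a rise of 1.77 (SE 0.23). Its levels were similar in WT cells, 8.40 to 9.10 on the pluripotent arrays and 7.15 in MEF, with a WT difference of 1.82. Klf4 stood at 11.60 and 11.56 against 10.70, a rise of 0.88 (SE 0.14) that did not pass without KO iPSC replicate 1 (adjusted p = 0.0502). Myc, the growth regulator, went the other way, with 10.58 in KO MEF and 9.11 and 9.22 in KO iPSC (-1.42, SE 0.11). Klf4 was thus already well above background in KO MEF, and Pou5f1 was above it too, where Sox2 was not. Esrrb, a nuclear receptor that can stand in for Nanog in reprogramming, stood at 8.06 and 7.55 against 6.10 and rose at least 2.74-fold. Its levels in the WT pluripotent arrays were 8.24 to 9.41.

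Within the network some groups rose together and others did not. Among naive factors, Klf2 rose by 2.84, Klf5 by 2.89, Tbx3 by 2.45 and Nr5a2 at least 8.22-fold. The Dppa genes differed from each other: Dppa2 rose at least 41.0-fold and Dppa4 by 3.31, while Dppa3 (0.39) and Dppa5a (0.14) did not pass. Dppa5a stood between 6.24 and 6.58 on all 7 arrays, so it was near background in the WT pluripotent cells too. Of the DNA hydroxymethylating enzymes, Tet1 rose by 4.09 and Tet2 by 1.14, while the third, Tet3, which is not in the network list, fell (-1.69). The zinc finger factors Zfp42 (Rex1) and Zscan10 rose at least 13.6-fold and at least 19.7-fold, and Sall4 by 4.13. The network genes that did not pass, besides those 2 Dppa genes, were Stat3 (-0.37), Zfx (-0.05), Esrp1 (0.00) and Lin28b (0.68). Stat3, the effector of LIF, was bright on all 3 KO arrays (11.33, 11.44 and 11.75), whereas Esrp1, an epithelial splicing factor, was below background on all 3. Without either WT iPSC array, Dppa3 (adjusted p = 0.0283), Stat3 (0.0292) and Lin28b (0.00862) passed.

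The same step was measured in WT cells, and the test of the difference between genotypes is the interaction, KO iPSC minus KO MEF less WT iPSC minus WT MEF. Over all genes it was positive in 682 (3.07%) and negative in 1215 (5.48%). In the network 6 genes were negative and 1 positive. Nanog rose by 1.05 in KO and 6.27 in WT (interaction -5.22, SE 0.15). The growth factor Fgf4, known as a target of Oct4 and Sox2, stood at 9.64 and 9.82 in KO iPSC and 7.49 in KO MEF, and its interaction was -2.50 (SE 0.18, adjusted p = 0.00598). The others were Mycn (-2.11), Tet2 (-1.93), Utf1 (-1.05) and Tet1 (-0.79), each of which rose less in KO, and the cell cycle factor Mybl2 (0.84), which rose more. Mycn itself did not pass the test of its rise without KO iPSC replicate 1 (adjusted p = 0.0646). The interaction count rests on the KO iPSC pair: without KO iPSC replicate 1 it was 19 positive and 70 negative genes, without KO iPSC replicate 2 it was 40 and 118, and with the pair averaged 29 and 85. Leaving out WT iPSC replicate 1 gave 2084 and 2932, and leaving out the other 2036 and 2801. Of the 7 network genes, Nanog alone passed without either KO iPSC array, and Fgf4 passed without replicate 2 but not without replicate 1 (adjusted p = 0.0502). For Sox2 (-0.19, SE 0.15), Pou5f1 (-0.04, SE 0.32), Nr0b1 (0.66, SE 0.20) and Zfp42 (-0.44, SE 0.15) the interaction did not pass.

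Genes of DNA replication and mitosis rose almost without exception. Of 35 genes of the G1/S phase and replication 34 rose (18.1% of all genes did) and 0 fell (17.9% did), with a median of 1.88. Of 31 G2/M genes 31 rose (median 1.53). Orc1, the large subunit of the origin recognition complex, stood at 9.95 and 9.98 in KO iPSC and 6.70 in KO MEF, a rise of 3.27 (SE 0.20). Uhrf1, which brings maintenance methylation to replicated DNA, rose by 2.89, Mcm10 by 2.82 and the polymerase subunit Pole by 2.73. In mitosis, the kinesin Kif20b stood at 9.86 and 9.81 against 6.5 and rose by 3.33 (SE 0.14), and Ect2, Kif2c and Birc5, which act in cytokinesis and chromosome segregation, rose by 2.40, 2.36 and 2.32. The 1 replication gene that did not pass was Rrm1. The 2 MEF arrays differed in these genes. The median of the G2/M list was 8.90 in KO MEF and 10.28 in WT MEF, against 10.41 and 10.47 in KO iPSC, and that of the G1/S list was 8.37 in KO MEF and 9.31 in WT MEF. In the interaction 9 G2/M and 8 G1/S genes were positive (3.07% of all genes were) and 0 negative (5.48%). The part of the low KO MEF levels in these rises was not tested.

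Beside 18.1% of all genes that rose and 17.9% that fell, epithelial junction genes rose in 15 of 35 cases and 0 fell (median 0.77). It was 9 without KO iPSC replicate 2, and 27 with 3 falls without either WT iPSC array. E-cadherin, Cdh1, which holds pluripotent colonies together, stood at 11.52 and 11.59 in KO iPSC and 7.26 in KO MEF, a rise of 4.29 (SE 0.17). Claudin Cldn4 rose by 4.61, the desmosomal cadherin Dsg2 at least 10.8-fold, the protease inhibitor Spint1 by 4.05 and the adhesion molecule Epcam by 3.60. The 20 members that did not pass include Krt8 (2.02, SE 0.69), whose level differed between the iPSC arrays (10.43 and 10.17 in KO, 9.11 and 10.87 in WT). Without either WT iPSC array it passed (adjusted p = 6.98e-05).

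Metabolic enzymes and chromatin factors changed in both directions, more of them up than down. Over all genes 18.1% rose and 17.9% fell. Of 21 genes of one-carbon, threonine and proline metabolism 12 rose and 2 fell (median 0.63). Amt and Gldc, 2 parts of the glycine cleavage system, rose by 3.45 and 3.19. Dmgdh, dimethylglycine dehydrogenase, rose at least 10.6-fold and the methyltransferase gene Bhmt2 at least 4.98-fold, both from background, and both lay below background on the 3 WT pluripotent arrays. The serine synthesis enzyme Phgdh (-1.36) and the proline synthesis enzyme Aldh18a1 (-1.38) fell. Among 20 genes of DNA methylation and demethylation 10 rose and 4 fell. The de novo methylation cofactor Dnmt3l stood at 11.21 and 11.06 against 5.93 and rose at least 27.5-fold, and Dnmt3b rose by 3.04, while Tet3 (-1.69) and the methyl-CpG reader Zbtb4 (-2.54) fell. Of 39 polycomb and remodelling genes 20 rose and 4 fell, with the helicase Hells (3.28), the polycomb reader Cbx7 (3.24) and Mtf2 (2.99) ahead of the risen and the BAF ATPase Smarca2 (-3.08) the largest fall. The 4 falls became 7 without either WT iPSC array.

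In the MYC family list 13 of 18 genes rose and 2 fell, beside 18.1% and 17.9% of all genes. The risen were led by the nucleolar Nop58 (1.92) and Nop56 (1.39), and besides Myc the MYC antagonist Mxd4 fell by 2.78 on the log2 scale. Of 17 genes of the Lin28 and let-7 axis 10 rose and 2 fell, and without either KO iPSC array 6 rose and 1 fell. Lin28a, which blocks let-7 maturation, stood at 8.77 and 8.85 against 6.96 (1.85, SE 0.25), and the let-7 targets Trim71 (3.08), Arid3b (3.06) and Hic2 (2.95) rose. The glucose transporter Slc2a3 rose by 3.60 and hexokinase Hk2 by 2.41 in a glycolysis and hypoxia list of 26 in which 11 rose and 7 fell, the latter with Eno2 (-1.58) and the angiogenic factor Vegfa (-1.38). Vegfa did not pass without KO iPSC replicate 1 (adjusted p = 0.0966) or 2 (0.0822). Of this list 7 rose and 3 fell without replicate 1, and 8 and 2 without replicate 2.

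Some genes of the two-cell-like state, which flickers on in rare cells of ESC cultures, were high in KO iPSC. Of 26 members 9 rose (18.1% of all genes did) and 0 fell (17.9%). The count rests on single arrays, with 3 rises without KO iPSC replicate 1, 2 without replicate 2 and 17 without either WT iPSC array. Zscan4e stood at 11.22 and 11.09 in KO iPSC and at 4.32 in KO MEF, at least 27.9-fold (SE 0.80), with 7.75 to 11.28 on the WT pluripotent arrays and 4.62 in WT MEF. Zscan4b rose at least 15.3-fold and Zscan4c at least 7.25-fold, the latter not passing without KO iPSC replicate 1 (adjusted p = 0.0719) or 2 (0.0722). The pluripotent arrays thus varied widely among themselves. The Zscan4 genes are near-identical copies, so their signals cannot be assigned with certainty. Germline genes rose in 13 of 39 cases and 1, Tdrkh (-1.21), fell, with 7 rises without KO iPSC replicate 1 and 20 without either WT iPSC array. The piRNA factor Mael stood at 7.18 and 7.14 against 4.97 and rose at least 1.75-fold. Dazl, an RNA-binding protein of germ cells, rose at least 1.54-fold, and the meiotic cohesin Stag3 rose by 1.46. Of the 39 genes 11 had a negative interaction (5.48% of all genes did) and 0 a positive one (3.07%). In WT the step was larger for Mael, Dazl and Stag3, with interactions of -2.77, -1.97 and -2.26. Without KO iPSC replicate 1 none of these 3 interactions passed (adjusted p = 0.0581 for Mael, 0.147 for Dazl and 0.055 for Stag3), and without replicate 2 Stag3 did and Mael (0.0589) and Dazl (0.16) did not.

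The fibroblast programme fell. Of 39 fibroblast markers 33 fell (17.9% of all genes did) and 0 rose, with a median of -3.30. Matrix glycoproteins and cross-linking enzymes fell in 42 of 48 cases and 2 rose (median -4.16), the lowest median of the 40 lists. Asporin, Aspn, a small leucine-rich proteoglycan, stood at 12.25 in KO MEF and at 4.44 and 4.68 in KO iPSC, a fall of at least 55.1-fold (-7.69, SE 0.44, adjusted p = 0.000366). Periostin, Postn, stood at 12.90 against 5.37 and 5.08, at least 86.1-fold lower (-7.67, SE 1.15). Lysyl oxidase, Lox, which cross-links collagen, stood at 13.14 against 5.35 and 6.10, at least 102-fold lower (-7.41). In all 3 the KO iPSC arrays lay below background. The SE of Postn and Lox is large, and the 2 WT iPSC arrays, which enter it, stood at 9.09 and 6.13 for Postn and at 11.59 and 8.04 for Lox. The fall of Lox did not pass without KO iPSC replicate 1 (adjusted p = 0.0529). The 2 matrix genes that rose were the basement membrane genes Nid2 (1.53) and Lamc1 (0.36), and Lamc1 did not pass without KO iPSC replicate 1 (adjusted p = 0.19) or 2 (0.248).

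The promoters of the 2 genes with the largest falls are shown in the same way. Aspn lies on chr13:49544193-49544442, plus strand, and Postn on chr3:54359017-54359266, plus strand, both in GRCm38.p6. Capitals mark TATAAA or, on the other strand, TTTATA.
Aspn: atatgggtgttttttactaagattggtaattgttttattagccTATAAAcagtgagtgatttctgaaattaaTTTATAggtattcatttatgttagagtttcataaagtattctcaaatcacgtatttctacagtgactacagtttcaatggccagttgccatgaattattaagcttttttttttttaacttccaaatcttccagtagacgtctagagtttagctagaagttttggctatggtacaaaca
Postn: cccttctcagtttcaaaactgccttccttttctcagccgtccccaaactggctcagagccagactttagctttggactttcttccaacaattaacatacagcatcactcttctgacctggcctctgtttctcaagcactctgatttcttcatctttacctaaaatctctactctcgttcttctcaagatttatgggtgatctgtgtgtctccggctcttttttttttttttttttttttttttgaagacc
These windows are poor in CpG, with an observed over expected ratio of 0.36 for Aspn and 0.34 for Postn, against 0.55 for Nr0b1, 0.65 for Tdgf1 and a median of 0.54 over all 16918 promoters. The median was 0.58 over the genes that fell at least 4-fold and 0.63 over those that rose at least 4-fold. It was 0.45 over the genes switched on and 0.47 over those switched off, Aspn and Postn among the latter. A ratio below that of all promoters was thus seen in both switched classes, and not in the genes that fell at least 4-fold as a group. Of the 647 promoters of genes that fell at least 4-fold, 5.1% held TGANTCA, the AP-1 motif, against 6.44% of all, and 11.9% held TATAAA. Among the 264 promoters of genes switched off 7.58% held TGANTCA.

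Within the matrix, collagens were less uniform: 23 of 40 fell (17.9% of all genes did) and 1, Col22a1 (0.38), rose (18.1% did), with a median of -0.67. Col22a1 did not pass without KO iPSC replicate 1 (adjusted p = 0.224) or 2 (0.163). The fibril-forming Col1a1 stood at 12.94 in KO MEF and 7.22 and 7.23 in KO iPSC (-5.71, SE 0.83), and Col12a1 fell at least 76.3-fold. The decorin gene Dcn, whose product binds collagen fibrils, stood at 12.19 against 5.59 and 5.56, at least 52.5-fold lower, and osteoglycin Ogn fell at least 59.2-fold. Of 34 proteases and their inhibitors 27 fell and 2 rose. The inhibitors Timp2 (at least 47.9-fold) and Timp3 (-5.62) and the proteases Adamts5 (at least 35.2-fold) and Mmp2 (-5.27) were the 4 largest falls, of which that of Timp2 did not pass with limma's trend and robust options (adjusted p = 0.0549). The urokinase receptor Plaur (2.37) and the procollagen enhancer Pcolce2 (1.59) rose.

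Mesenchymal identity and contraction fell together with the matrix. Their counts stand beside 17.9% of all genes that fell and 18.1% that rose. Of 21 mesenchymal transition factors 17 fell and 0 rose (median -2.32; 11 fell without KO iPSC replicate 1), led by Tgfb3 (-6.09), Cdh11 (-6.09), Prrx1 (-5.18) and Twist2 (at least 13.4-fold). With KO iPSC replicate 1 or 2 left out, the adjusted p was 0.0545 and 0.0508 for Tgfb3, 0.0685 and 0.0696 for Cdh11 and 0.0558 and 0.0668 for Prrx1. Of 30 smooth muscle and actin genes 27 fell and 2 rose (median -1.54). Smooth muscle actin, Acta2, stood at 13.47 in KO MEF and 7.99 and 8.08 in KO iPSC (-5.43, SE 0.34). In the WT pluripotent arrays it stood between 11.84 and 12.76, nearer to the MEF arrays. Calponin Cnn1 (-4.52), Myl9 (-4.41) and Tagln (-4.40) fell too. The transcription factor Srf (0.60) and the LIM protein Csrp2 (0.59) rose. When KO iPSC replicate 1 or 2 was left out, the adjusted p was 0.0705 and 0.0888 for Srf and 0.0967 and 0.0622 for Csrp2.

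Growth factor genes were called in both directions. Over all genes 18.1% rose and 17.9% fell. Of 18 genes of the insulin-like growth factor axis 14 fell and 2 rose (median -2.54), among them the ligand Igf2 (-4.09), the binding proteins Igfbp7 (-5.45) and Igfbp5 (at least 22.3-fold) and the protease Pappa (at least 31.4-fold), while the adaptor Irs2 (0.85) and Igfals (0.40) rose. Neither rise passed without KO iPSC replicate 1 (adjusted p = 0.083 and 0.19) or 2 (0.073 and 0.215). Of 47 receptor tyrosine kinases 22 fell and 6 rose. The fibroblast kinases Axl (-5.19), Pdgfrb (-5.19), Ddr2 (-5.11) and Pdgfra (-4.63) fell, and Epha2 (2.24) and the stem cell factor receptor Kit (1.38) rose. Kit stood at 8.36 and 8.33 in KO iPSC and between 10.61 and 11.28 in the WT pluripotent arrays, and its interaction was -2.97 (SE 0.34), with an adjusted p of 0.0729 without KO iPSC replicate 1 and 0.0743 without replicate 2. In the TGF-beta, BMP and Nodal list 24 of 44 fell (54.5%) and 8 rose (18.2%, near the 18.1% of all genes). Tgfb3, Ltbp2 (-4.65) and the procollagen protease Bmp1 (-4.46) were on 1 side and Tdgf1 on the other. Leaving out KO iPSC replicate 1 or 2, the adjusted p was 0.0544 and 0.0621 for Ltbp2, and 0.0545 and 0.0508 for Tgfb3. Integrins and surface antigens fell in 16 of 35 cases (45.7%) and rose in 7 (20.0%, near the share of all genes). The falls included Thy1 (-5.37), Itga11 (-4.55) and Vcam1 (-3.96). Itga11 did not pass with limma's trend and robust options (adjusted p = 0.0541).

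Targets of ERK and immediate early genes rose in 16 of 33 cases and fell in 6, with 9 rises without either KO iPSC array. Fosb stood at 11.36 and 11.30 in KO iPSC and 7.99 in KO MEF (3.34, SE 0.78), with 6.77 to 9.81 on the WT pluripotent arrays, and did not pass without KO iPSC replicate 1 (adjusted p = 0.0856) or 2 (0.0804). Etv1 (2.04) and the ERK inhibitor Spry4 (2.02) rose and Fosl2 (-2.10) fell. Of the list 48.5% rose and 18.2% fell, beside 18.1% and 17.9% of all genes. For Fos (1.79, SE 0.76) and Egr1 (1.56, SE 0.53) the difference did not pass, but did without either WT iPSC array (adjusted p = 2.92e-05 and 9.1e-05). Of 39 Wnt genes 17 fell and 9 rose. The receptor genes Lgr5 (at least 60.3-fold) and Fzd2 (-4.03), the agonist Rspo3 (-3.33) and the antagonist Sfrp2 (-3.66) fell, and the Wnt deacylase Notum (2.36) and the receptor Fzd5 (2.04) rose. Sfrp2 stood at 10.86 in KO MEF, but at 7.0 in WT MEF and at 7.15 and 7.25 in KO iPSC. Another, dimmer probe set of Sfrp2 (mean level 6.07) gave no fall (-0.0).

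HOX genes, which record position along the body, fell in 23 of 36 cases, beside 17.9% of all genes that fell and 18.1% that rose. Hoxc8 stood at 10.35 in KO MEF and 6.41 and 6.49 in KO iPSC (-3.90, SE 0.88), and Hoxc6 (-3.26), Hoxd13 (-3.16) and Hoxd11 (-2.57) followed. Hoxc8 did not pass without KO iPSC replicate 1 (adjusted p = 0.0778) or 2 (0.0729). Against this direction, 2 neighbouring genes of the HoxC cluster rose. Hoxc12 stood at 9.0 and 8.98 in KO iPSC, 6.84 in KO MEF and between 6.83 and 7.82 on the 4 WT arrays, a rise of 2.15 (SE 0.13). Hoxc13 stood at 9.15 and 9.18, with 7.0 in KO MEF and 7.03 to 7.92 on the WT arrays, a rise of 2.16 (SE 0.18). Both KO iPSC arrays thus lay above all other arrays. The interaction was 2.25 for Hoxc12 (SE 0.19, adjusted p = 0.00786) and 1.67 for Hoxc13 (SE 0.26, adjusted p = 0.027). Its adjusted p without KO iPSC replicate 1 or 2 was 0.0581 and 0.057 for Hoxc12 and 0.12 and 0.12 for Hoxc13.

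Of 30 genes of the CDK inhibitor, p53 and senescence list 18 fell and 2 rose, and 4 rose without either WT iPSC array. The CDK inhibitor Cdkn1a, bright on all 3 KO arrays (12.62 and 12.60 in KO iPSC, 12.92 in KO MEF), did not pass (-0.31, adjusted p = 0.0737) but did without either WT iPSC array (0.0405). Cdkn2a (-1.33) and Cdkn1c (-2.11), inhibitors of the cell cycle, fell. These 3 inhibitors were picked after their values were seen. The largest fall of the list was that of a gene that drives the cycle, the cyclin Ccnd2. It stood at 12.56 in KO MEF and at 5.60 and 5.67 in KO iPSC, at least 68.3-fold lower, while the WT pluripotent arrays stood between 9.52 and 10.91 (interaction -4.63, SE 0.69, adjusted p = 0.101 without KO iPSC replicate 1 and 0.096 without replicate 2). The chemokine Ccl2 fell by 4.75 on the log2 scale but did not pass with limma's trend and robust options (adjusted p = 0.0671), and lamin Lmnb1 (2.36) and Perp (0.94) rose. Of 37 innate immune and interferon-stimulated genes 20 fell and 1, Xaf1 (0.57), rose, which did not pass without KO iPSC replicate 1 (adjusted p = 0.0803) or 2 (0.154), and 4 rose without either WT iPSC array. The antiviral membrane protein Ifitm3 stood at 12.70 in KO MEF and 8.16 and 8.62 in KO iPSC (-4.32, SE 0.24), against 11.94 to 12.49 on the 4 WT arrays. Both WT cell types were therefore high, and only the KO iPSC arrays were low. Lysosomal genes fell in 13 of 27 cases and 1, Cd68 (1.64), rose, with 7 falls without either KO iPSC array. Of 21 cholesterol and fatty acid synthesis genes 7 fell and 1, Elovl6 (1.05), rose, with no fall of 4-fold or more. The counts of this list and of those before it stand beside 17.9% of all genes that fell and 18.1% that rose. The 7 falls became 1 without KO iPSC replicate 1 and 3 without replicate 2.

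Imprinted genes moved both ways, 8 of 30 up and 10 down, with 5 up without either KO iPSC array. Over all genes 18.1% rose and 17.9% fell. Igf2, Dlk1 (-3.28) and Grb10 (-3.19) fell. Plagl1, a zinc finger regulator of growth, stood at 10.83 on both KO iPSC arrays and 7.54 in KO MEF (3.29, SE 0.39), against 7.28 to 9.03 on the WT arrays, and its interaction was 3.59 (SE 0.55), with an adjusted p of 0.107 without KO iPSC replicate 1 and 0.105 without replicate 2. Primed and formative epiblast genes rose in 10 of 21 cases and fell in 4, with the Nodal antagonist Lefty2 (at least 9.47-fold) and the binding protein Igfbp3 (-4.07) the largest in either direction. Lefty2 did not pass without KO iPSC replicate 1 (adjusted p = 0.053) or 2 (0.0664).

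**Figure D3:**
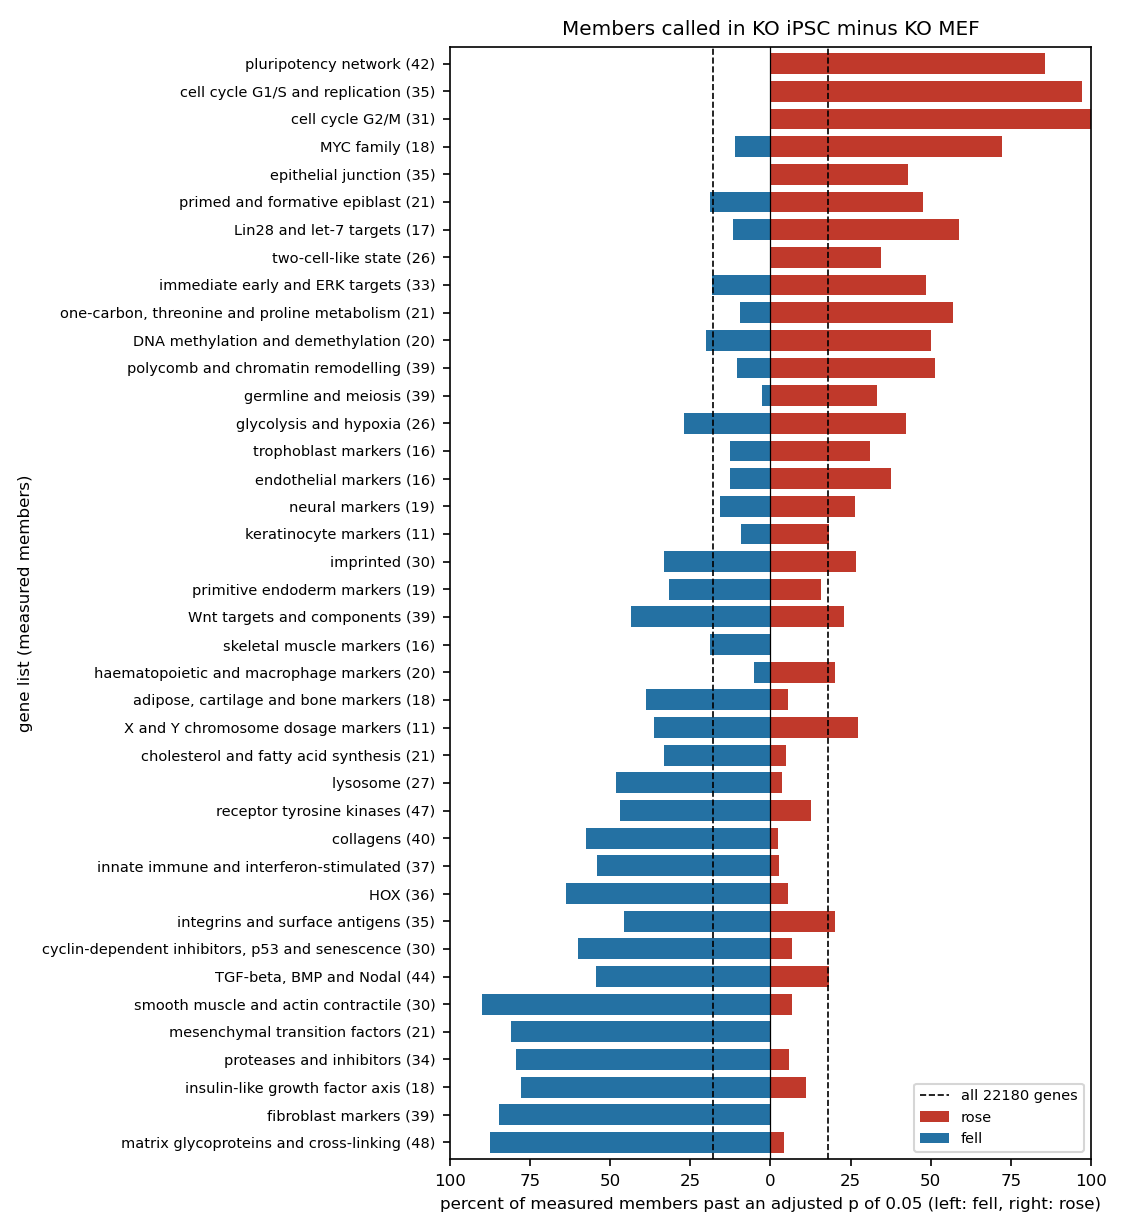
Percent of the measured members of each of 40 gene lists that rose (right, red) or fell (left, blue) in KO iPSC minus KO MEF, ordered by the list's median difference, with dashed lines at the share of all 22180 genes (18.1% and 17.9%). The pluripotency and cell cycle lists reach 85.7% or more on the right, and the matrix, fibroblast and contractile lists 84.6% to 90.0% on the left.

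Markers of other cell types were counted in the same way, beside 18.1% of all genes that rose and 17.9% that fell. Skeletal muscle markers rose in 0 and fell in 3 of 16 cases, haematopoietic and macrophage markers rose in 4 and fell in 1 of 20, and keratinocyte markers rose in 2 and fell in 1 of 11. Of the haematopoietic list 7 members fell without either WT iPSC array, and the fallen keratinocyte gene, Ivl (-0.68), did not pass without KO iPSC replicate 1 (adjusted p = 0.0625). The median of the haematopoietic list was 6.78 and 6.69 in KO iPSC and 6.93 in KO MEF. Its risen members were Nckap1l (3.53), Laptm5 (3.36), Cd68 and Spi1 (0.60), the last of which did not pass without KO iPSC replicate 1 (adjusted p = 0.0556) or 2 (0.127). Of the defining markers, Ptprc stayed below background on the KO arrays (5.34, 5.23 and 5.66) and Csf1r did not pass (-0.19). Endothelial markers rose in 6 and fell in 2 of 16, led by Pecam1 (3.0), also an antigen of mouse ESC, while the cadherin Cdh5 did not pass (0.08). Only 1 endothelial marker rose without KO iPSC replicate 1, and likewise 1 without replicate 2. Neural markers rose in 5 and fell in 3 of 19, trophoblast markers in 5 and 2 of 16, primitive endoderm markers in 3 and 6 of 19, and adipose, cartilage and bone markers in 1 and 7 of 18. Of the primitive endoderm list the transcription factor Gata6 (-1.31, picked after its values were seen), Pdgfra, the adaptor Dab2 (-3.96) and the laminin Lamb1 (-3.82) were among the fallen, and Gata4 did not pass (0.11). Gata6 stood at 9.32 in KO MEF and at 8.0 and 8.02 in KO iPSC, above the WT pluripotent arrays (6.61 to 7.03). The risen members of the primitive endoderm list were the apolipoprotein Apoe (2.90), the endocytic receptor Lrp2 (1.18) and the transcription factor Sox17 (0.37). The rises of Lrp2 (adjusted p = 0.145 and 0.131) and Sox17 (0.193 and 0.231) did not pass without KO iPSC replicate 1 or 2, which left 1. Adipose, cartilage and bone markers had 2 rises without either WT iPSC array. Among neural markers the neurofilament genes Nefl and Nefm (by at least 35.8-fold and 5.39-fold) and Stmn2 (3.0) rose and the adhesion molecule Ncam1 (-4.68) fell. The keratinocyte gene Lor stood at 9.0 and 8.93 in KO iPSC and between 6.31 and 7.04 on the other 5 arrays.

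Outside the lists, the 10 largest rises held zinc finger genes of a multi-copy family, Zfp640 (at least 45.2-fold), Zfp936 (at least 43.4-fold), Zfp981 (at least 39.2-fold), Gm10324 (at least 22.4-fold) and Gm7762 (at least 12.1-fold). Their copies are alike, so the signals cannot be assigned with certainty. The tripartite motif genes Triml1 and Triml2 rose at least 40.3-fold and at least 32.2-fold, and Apela, which encodes a peptide hormone of ESC, at least 30.0-fold. Cyp2b23 and Pramel30 completed the list, at least 18.7-fold and at least 10.2-fold. The 10 largest falls were S1pr3 (at least 56.0-fold), a sphingosine phosphate receptor, Serpina3n (at least 45.7-fold), Ccdc80 (at least 44.7-fold), the oncostatin receptor Osmr (at least 48.4-fold), Tmem176b, Pcdh18, Lrrc32, Lbh, Parp8 and the dermatopontin gene Dpt. With limma's trend and robust options Ccdc80 (adjusted p = 0.068), Osmr (0.0547) and Lrrc32 (0.0523) did not pass. Dpt stood at 11.06 in KO MEF and between 5.72 and 6.25 on the other 6 arrays.

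Genes that crossed the background were counted as on and off. A gene was switched on where it rose at least 2-fold with KO MEF below and both KO iPSC arrays above background, and switched off in the reverse case. The terms compare levels between samples and follow no culture over time. By this rule 289 genes (1.3%) were switched on and 378 (1.7%) off, the Y-linked Eif2s3y and Uty among the latter. The genes switched on had a median of 5.83 in KO MEF, 8.0 and 7.95 in KO iPSC, 8.01 on both WT iPSC arrays and 7.71 in WT ESC. Of the 289, 222 lay above background on all 3 WT pluripotent arrays and 31 lay below it on all 3. The genes switched off had a median of 7.97 in KO MEF, 7.23 in WT MEF and 5.87 on both KO iPSC arrays. Of the 378, 198 lay below background on all 3 WT pluripotent arrays and 68 above it on all 3. On single WT pluripotent arrays 236 to 244 of the 289 and 93 to 145 of the 378 lay above background. Of all genes 62.4% to 63.7% did so on each of these arrays.

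**Figure D4:**
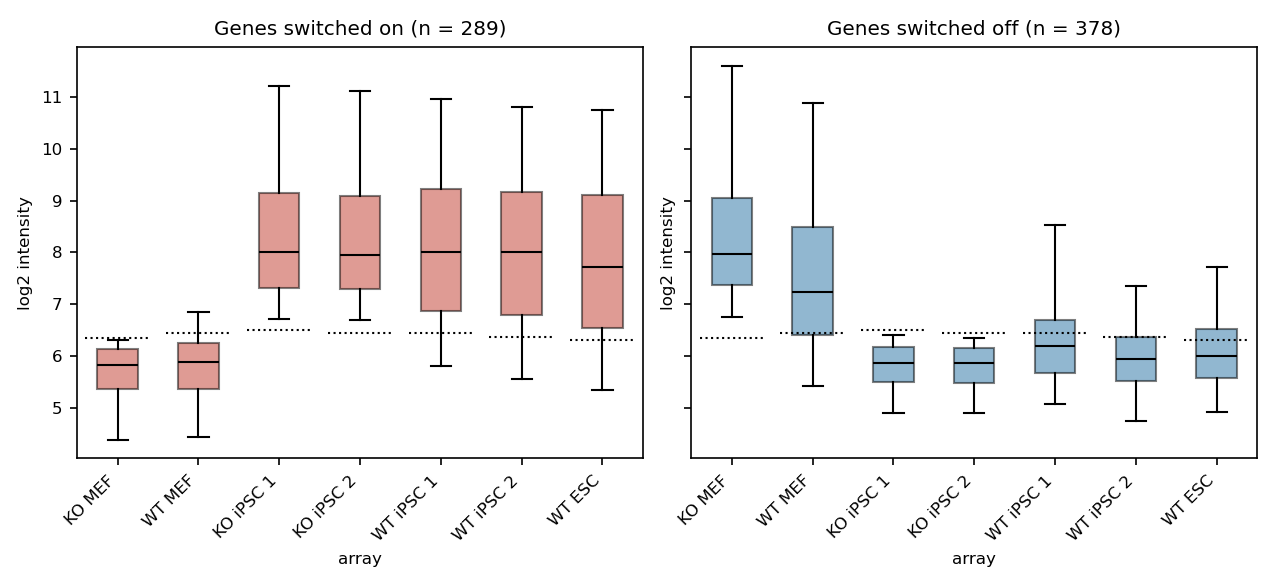
Log2 intensity of the 289 genes switched on (left) and the 378 switched off (right) on each array, as boxes from the lower to the upper quartile with the median, whiskers at the 5th and 95th percentiles and dotted lines at each array's background. KO MEF and the KO iPSC arrays were used to choose the genes and are shown for reference; on the WT arrays the genes switched on have medians of 7.71 to 8.01 in the pluripotent cells and 5.89 in MEF.

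The 31 genes on in KO iPSC and below background on the 3 WT pluripotent arrays were examined after their values were seen. Pramel30, of a family of leucine-rich repeat genes with many copies, stood at 9.49 and 9.93 in KO iPSC, and at 4.18 to 5.51 on the other 5 arrays. Dmgdh stood at 9.79 and 9.73 and at 5.33 to 5.82 elsewhere. The aldehyde oxidase Aox3 stood at 9.45 and 9.41 and at 5.36 to 5.93 elsewhere. In each of these genes the KO iPSC arrays stood apart from both fibroblast arrays and from the WT pluripotent arrays, and the same held for Nefm, Bhmt2, Spata31d1b (8.75 and 8.98), 2410021H03Rik (8.18 and 8.06), Pdzrn4 (8.47 and 8.49), the melanosome receptor gene Gpr143 (7.71 and 7.70) and Bst1 (7.94 and 7.65). Among the 68 genes off in KO iPSC and above background on all 3 WT pluripotent arrays were Lox, Ccnd2, Col12a1, Timp2, Col8a1, Pappa, Igfbp5 and the receptor Fgfr2. Fgfr2 stood at 9.49 in KO MEF, 6.43 and 6.21 in KO iPSC and 7.57 to 8.27 on the WT pluripotent arrays. Most of the genes named here were bright in MEF, but others of the 68 were not. Akr1e1 and Plxnb1 are examples, picked after their values were seen. Akr1e1 stood at 7.51 in KO MEF, 8.07 in WT MEF and 7.92 to 8.31 on the WT pluripotent arrays. Plxnb1 stood at 7.16 in KO MEF, 7.52 in WT MEF and 7.46 to 8.05 on the WT pluripotent arrays. The median of the fibroblast list was 7.22 and 7.08 in KO iPSC and 7.20 to 8.10 on the WT pluripotent arrays. The part of fibroblast RNA on the WT arrays in these differences was not tested.

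Across the genes with at least a 4-fold change in KO, the WT step mostly had the same sign. Of the 487 that rose, 470 were also higher in WT iPSC than in WT MEF, with a median of 2.69 in KO and 2.18 in WT. Of the 886 that fell, 850 were also lower, with a median of -2.87 in KO and -1.82 in WT. Since the genes were chosen on the KO value, a smaller WT value is partly built in. The interaction passed in 179 of the 487 and 333 of the 886.

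Of the 8 largest negative interactions, 7, all but that of Nanog, were of genes brighter in KO MEF than in WT MEF. The leucine-rich receptor Lgr5 stood at 12.38 in KO MEF and between 5.70 and 6.25 on the other 6 arrays, so its difference was -6.44 in KO and -0.12 in WT (interaction -6.32, SE 0.32). The acute phase inhibitor Serpina3n stood at 11.99 in KO MEF and at 5.45 to 6.44 elsewhere (-6.85, SE 0.30), and lumican, Lum, at 10.60 and at 4.91 to 5.20 elsewhere (-5.54, SE 0.22). Egfl6 (-6.46), Igfbp3 (-5.36), Dcn (-5.12) and Dhdh (-5.20) were likewise high in KO MEF and lower in WT MEF. With KO iPSC replicate 1 or 2 left out, the adjusted p of the interaction was 0.152 and 0.151 for Dcn, and for Dhdh it was 0.0526 without replicate 1. For these 7 genes the fall rests on 1 array of KO fibroblasts. KO genotype, the Y-linked signal and other properties of that sample cannot be told apart.

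The 8 largest positive interactions were of genes high in KO iPSC. The ATP-gated channel P2rx7 stood at 12.60 and 12.54 in KO iPSC, 7.5 in KO MEF and between 7.36 and 8.30 on the WT arrays, so it rose by 5.07 in KO and differed by 0.92 in WT (interaction 4.15, SE 0.15). The actin regulator Nckap1l stood at 10.59 on both KO iPSC arrays and between 7.06 and 7.70 elsewhere (3.86, SE 0.22). Pramel30 (4.53), Dmgdh (4.07) and Aox3 (3.82) belong to the same pattern. Plaur had a second component: it stood at 11.46 and 11.48 in KO iPSC and 9.10 in KO MEF, but at 8.82 and 9.03 in WT iPSC and 11.19 in WT MEF, so that the 2 genotypes changed in opposite directions (4.63, SE 0.18). The catenin Ctnnd2 (3.84) and Mir3070b (3.84) also had the higher value in iPSC for KO and in MEF for WT. When KO iPSC replicate 1 or 2 was left out, the adjusted p of the interaction was 0.0508 and 0.0511 for Pramel30 and 0.0981 and 0.0943 for Mir3070b.

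**Figure D5:**
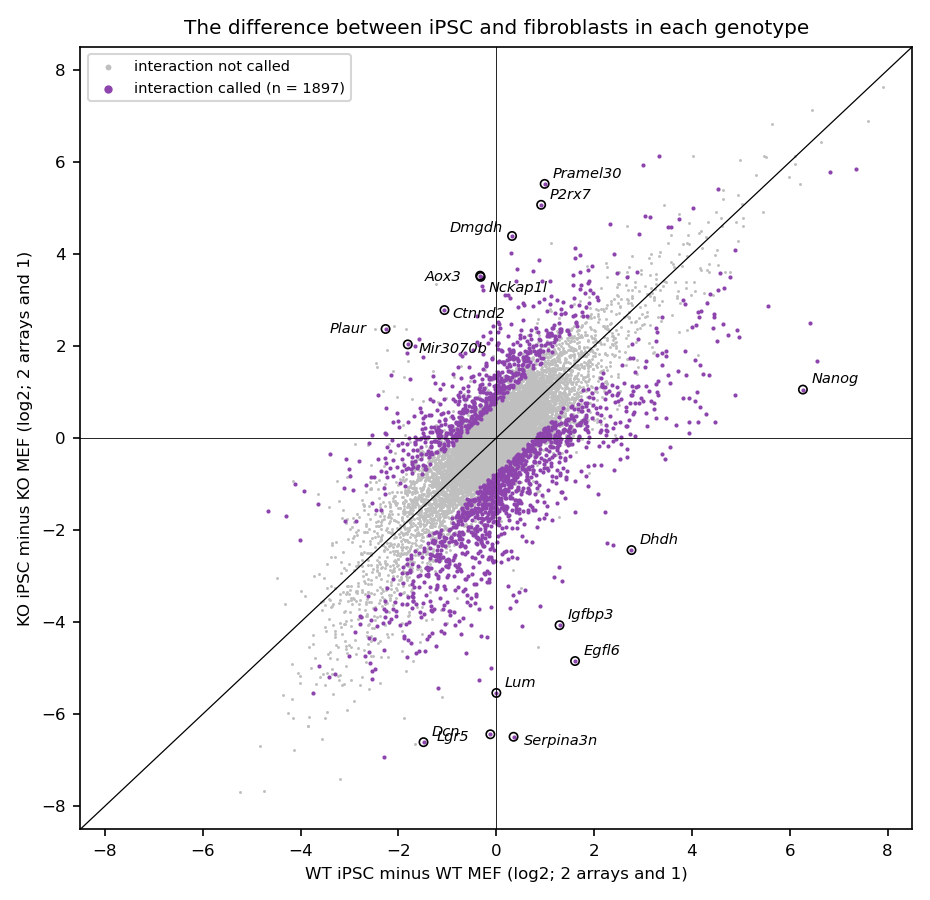
KO iPSC minus KO MEF against WT iPSC minus WT MEF (both log2) for 22180 genes, with the line of equal change and the 1897 genes whose interaction passed in purple. The 16 genes with the largest interactions are named: P2rx7, Pramel30 and Dmgdh rose in KO at WT differences of 0.92, 0.99 and 0.32, Lgr5, Lum and Serpina3n fell in KO at WT differences of -0.12, 0.00 and 0.35, and Nanog rose by 1.05 in KO and 6.27 in WT.

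MicroRNA genes were examined last, and those named were picked after their values were seen. MicroRNAs are short RNAs that repress transcripts paired with their seed, bases 2 to 8. These probe sets read RNA from the miRNA locus and not the mature miRNA. Of 426 miRNA genes 63 rose and 31 fell, smaller shares than the 18.1% and 17.9% of all genes, and 131 lay above background in KO MEF or on both KO iPSC arrays. Of the named genes that moved between background and signal, mature sequences are given for all but Mir3070b and Mir300. They are shown as RefSeq has them, seed in capitals, with 2 seed relatives (miR-302d and let-7c) and with miR-15a, which rose above background throughout.
miR-290a-3p: aAAGUGCCgccuaguuuuaagccc
miR-302c-3p: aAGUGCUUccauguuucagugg
miR-302d-3p: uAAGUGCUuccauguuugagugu
miR-15a-5p: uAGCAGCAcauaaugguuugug
let-7e-5p: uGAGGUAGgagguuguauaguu
let-7c-5p: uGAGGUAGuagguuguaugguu
miR-125b-5p: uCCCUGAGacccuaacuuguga
miR-181b-5p: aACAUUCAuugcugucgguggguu
miR-199a-5p: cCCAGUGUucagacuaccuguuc
miR-218-5p: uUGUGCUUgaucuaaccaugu
The miR-290 and miR-302 families are the characteristic miRNAs of pluripotent cells and share the letters AAGUGC at or next to the seed. Mir290a stood at 7.10 and 7.12 in KO iPSC, 4.15 in both MEF arrays and 8.09 to 8.82 on the WT pluripotent arrays, a rise of at least 1.69-fold (SE 0.30). Mir302c stood at 6.97 and 6.70 against 4.23 and rose at least 1.39-fold, while Mir302d (5.37 and 5.35 in KO iPSC) stayed below background. Mir15a was above background on all 7 arrays and rose by 1.99 (SE 0.14).

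Several miRNA genes fell from a signal in KO MEF. Mir181b-1 stood at 8.44 in KO MEF and 4.41 and 4.26 in KO iPSC, at least 3.93-fold lower. Mir125b-1 fell at least 2.05-fold, Mir218-1 at least 5.79-fold and Mir199a-1 at least 3.92-fold. The let-7 family, opposed by Lin28a, keeps the seed GAGGUAG in let-7e and let-7c. Mirlet7e stood at 7.87 in KO MEF and 6.5 and 6.12 in KO iPSC, at least 2.64-fold lower, and Mirlet7c-2 was below background on all 3 KO arrays. Several miRNA genes of chromosome 12 rose that lie in the imprinted Dlk1-Dio3 region, where the maternal copy expresses RNAs such as Meg3 and Rian. Mir3070b stood at 8.37 and 8.38 in KO iPSC and 6.34 in KO MEF (at least 4.06-fold), Mir679 rose by 1.76 and Mir654 by 1.3. Mir300 stood at 6.92 and 7.13 against 5.18 and rose at least 1.59-fold. Meg3 rose by 0.43 (SE 0.12) and the host RNA Rian did not pass (1.02, SE 1.06). Leaving out KO iPSC replicate 1 or 2, the adjusted p was 0.0538 and 0.054 for Mir3070b, 0.0657 and 0.0751 for Mir679 and 0.237 and 0.0985 for Meg3, and without either WT iPSC array Rian passed (adjusted p = 0.000488). The WT iPSC arrays differed from each other in Rian (9.65 and 6.92), the KO iPSC arrays little (10.31 and 10.17).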

How the data were processed

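The members and gene lists were chosen with earlier results of these data known. The authors deposited linear intensities per probe set. The submitters' processing notes name RMA and Affymetrix Expression Console 1.3.0.187, without steps. Here log2 was taken, with no further normalization. Annotation gave 23521 of 33649 probe sets 1 symbol, 1814 several and did not list 8314. Per gene the probe set with the highest mean was kept (22180 genes, 1082 with several). No column was unmapped (0). limma 3.58.1 in R 4.3.3 (lmFit, eBayes, two-sided) fitted 1 coefficient per group to 7 arrays, with 2 residual degrees of freedom. On simulated data it recovered 32 of 100 genes changed by log2 1 and 85 of 100 changed by log2 3, with 3 false calls. The simulation gave all 7 arrays, MEF included, the spread of the iPSC pairs, and changed far fewer genes than passed here. It therefore cannot show how often false calls arise if MEF vary more. Replicate numbers do not pair the samples (r = 0.017 over 22180 genes). P-values measure the spread within the KO iPSC and WT iPSC pairs. The single MEF and ESC arrays add nothing to it. The number of arrays limits the precision. Lists (40, of 1122 symbols 1034 measured) got counts and medians and no test. Named were fixed markers, per list the 4 largest changes and 2 against them, the 10 largest rises and falls outside lists and the 8 largest interactions per sign. Exceptions are stated as chosen after their values were seen, or give members beside a count. Figures used matplotlib 3.10.9.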

Additional observations from a re-analysis of the deposited data

Results flagged for a closer look

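In 16 genes the difference between iPSC and MEF differed between the genotypes by the limma interaction, and these are the 8 largest in each direction. The KO minus WT value was negative for Serpina3n (-6.85), Egfl6 (-6.46), Lgr5 (-6.32), Lum (-5.54), Igfbp3 (-5.36), Nanog (-5.22), Dhdh (-5.20) and Dcn (-5.12). Apart from Nanog, each of them stood higher in KO MEF than in WT MEF, by 3.41 for Dhdh to 6.30 for Lgr5. It was positive for Plaur (4.63), Pramel30 (4.53), P2rx7 (4.15), Dmgdh (4.07), Nckap1l (3.86), Mir3070b (3.84), Ctnnd2 (3.84) and Aox3 (3.82). Each of these stood higher in KO iPSC than in WT iPSC, by 1.52 for Ctnnd2 to 4.51 for Pramel30.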

How the results depend on the processing

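Of 226 named genes that passed, 0 changed direction in any alternative and 37 lost their call in at least 1. Of the 226, 203 kept it in all settings that kept the KO iPSC arrays as they were. Leaving out an array gave 2199 to 5540 genes higher, 2546 to 4864 lower, 19 to 2084 positive and 70 to 2932 negative interactions, the lowest without a KO iPSC array and the highest without a WT iPSC array. With the KO iPSC arrays averaged as 1 array the counts were 2188, 2599, 29 and 85. Leaving out the dimmest genes removes members of the on and off classes by construction: with the 11090 brightest genes kept 163 were on and 63 off, and with 14786 kept 249 were off. Uncalled values near 0 changed sign: Esrp1 was 0.01 after median centring and -0.05 to 0.04 without a KO iPSC replicate, and Zfx was 0.02 after quantile normalization. With the replicate number as a block 3727 genes were higher, 3811 lower, 511 positive and 1019 negative. Of the gene lists, the medians of 6 near 0 changed sign in some setting. Signal over background limits the dim genes, whose folds are lower bounds. Apart from effects that follow from fewer arrays or genes, the cause of these shifts was not tested.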

Other observations

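Besides Hprt, a further gene was low on both KO cell types and high on the WT arrays. Rps13, a ribosomal protein gene, stood at 6.67 and 5.67 in KO iPSC and 7.52 in KO MEF, against 9.84 to 10.96 on the 4 WT arrays. Rps13 has many pseudogene copies, so what its probe set reads is uncertain.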
